A study of Homo sapiens and Mus musculus with 213 samples.

Results

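The genes described here encode the cytosolic translation initiation factors (eIFs) and elongation factors (eEFs). They were chosen by name alone, as the protein-coding genes whose GENCODE symbol begins with EIF1 to EIF6 or with EEF1 or EEF2, leaving out symbols that contain AK, EBP or KMT. The rule found 58 genes among the 19773 listed protein-coding genes, and 58336 genes of all types are listed. By role, 14 belong to eIF3, 13 to start codon recognition, eIF2 and its partners, 13 to eIF4, 6 to eEF1, 5 to eIF2B, 3 to eIF5A and 2 to eEF2, the last pair being EEF2 and the kinase that acts on it, EEF2K. EIF6 and the readthrough transcript EEF1E1-BLOC1S5 complete the set.

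Translation begins when eIF2 brings the initiator tRNA to the small ribosomal subunit, with eIF1, eIF1A, eIF3 and eIF5 in attendance, while the eIF4 factors bind the mRNA cap, unwind the leader and recruit the loaded subunit. EIF5B, a GTPase, then joins the large subunit, eIF2B recharges eIF2 with GTP, and eIF5A and the eEF1 and eEF2 factors carry out elongation. Genes for this machinery are transcribed at high levels in dividing cells, many are described as targets of the transcription factor MYC, and several of their mRNAs begin with a run of pyrimidines through which the mTOR pathway controls their translation.

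The study asked what a G-quadruplex (G4), a four-stranded structure of guanine-rich DNA, does at the MYC promoter of HEK293T, an immortalized line from human embryonic kidney. RNA-seq was done on unedited HEK293T (WT), on a line in which CRISPR put mutations into the G-runs so that the G4 cannot fold (MUT), and on a line in which the motif was exchanged for a different G4-forming sequence (SWP), with 3 libraries of each. The edited lines were sorted as single cells and grown as clones, so any difference between clones is part of MUT and of SWP, and the sources used here do not state how many clones the 3 libraries of a line came from. The labels number the libraries of a line as biological replicates without saying what was kept separate, so the p-values measure the spread between these libraries.

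Values below are normalised counts, that is, reads on a gene after division by the size factor of its library. Library depth ran from 65024354 to 98497026 reads on genes. The HEK293T markers PAX2, KRT8, KRT18, VIM and NEFM were present in all 9 libraries, with a summed level of 60694 to 80849.8 normalised counts, whereas the summed markers of fibroblasts, hepatocytes and leukocytes reached at most 178, 21.2 and 109. In the deposited tables only the column names of the WT libraries carry the letters SLX, which may mark a sequencing pool. Whatever they mark cannot be told apart from the line when WT is compared with either edited line. Libraries numbered 1 stood apart from the others in WT and in SWP. MYC, the edited gene, had 20020.3, 28396 and 21580.1 normalised counts in the WT libraries, 10693, 11176 and 12399.8 in MUT and 14480.1, 24743 and 25245 in SWP. All MUT libraries lay below all WT and SWP libraries, and the WT and SWP libraries overlapped.

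Differences were tested with limma on log2(normalised count + 1) over the 20884 genes with a mean of at least 10 normalised counts, and a gene was called past the threshold at an adjusted p under 0.05 with a log2 fold change beyond 0.5. Of the 58 members, 53 reached that mean. The other 5 were EEF1G, EIF3CL, EIF4E1B, EEF1E1-BLOC1S5 and EIF1AY. EEF1G, a subunit of the nucleotide exchange factor of eEF1A, averaged under 1 count, and it overlaps over 14484 of its 14491 bases with a readthrough gene on the same strand, which averaged 33.1, so its level could not be read from these files. EIF3CL, a near-identical neighbour copy of EIF3C, had means of 1.3, 1.59 and 2.16 in WT, MUT and SWP, and EIF4E1B, a cap-binding paralog of germ cells, had means of 2.11, 5.43 and 3.41.

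The tested members ranged over several orders of magnitude once counts were divided by the length of their merged exons (the plot of levels per kilobase). EEF2, the translocase that moves the ribosome by a codon, stood highest, with 119876 ± 14348 (SD, n = 3) counts per kb in WT, 97396 ± 8414 in MUT and 97509 ± 13891 in SWP. Its normalised counts were 421234, 536017 and 488807 in WT, 366574, 378204 and 430115 in MUT and 332306, 400997 and 442948 in SWP. These groups overlapped, and neither difference from WT passed the test (log2 fold change -0.30, adjusted p = 0.0775 in MUT, and -0.30, adjusted p = 0.16 in SWP). EIF5A, which helps the ribosome through proline-rich stretches, came next at 25471 ± 3239 counts per kb in WT, followed by EIF1, a guardian of start codon choice, at 15462 ± 2598. EEF2 lay above EIF5A in every library, and the ranges of EIF5A and EIF1 in WT did not meet. At the bottom lay EIF3C with 40.4 ± 0.791, EIF4A1 with 154 ± 44.2 and EIF5A2 with 197 ± 32.7 counts per kb in WT, and the WT ranges of EIF4A1 and EIF5A2 overlapped. EIF3C had 283, 283 and 273 normalised counts in WT, 231, 238 and 304 in MUT and 219, 233 and 288 in SWP, and the groups overlapped. It has the near-identical neighbour EIF3CL, and how reads that match both were counted is not given in the sources used here, so its level is uncertain. EIF4A1 overlaps a readthrough gene and has many pseudogene copies, described below. Dividing by merged exons also lowers genes with long, little-used exons, such as EIF3E.

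**Figure D1:**
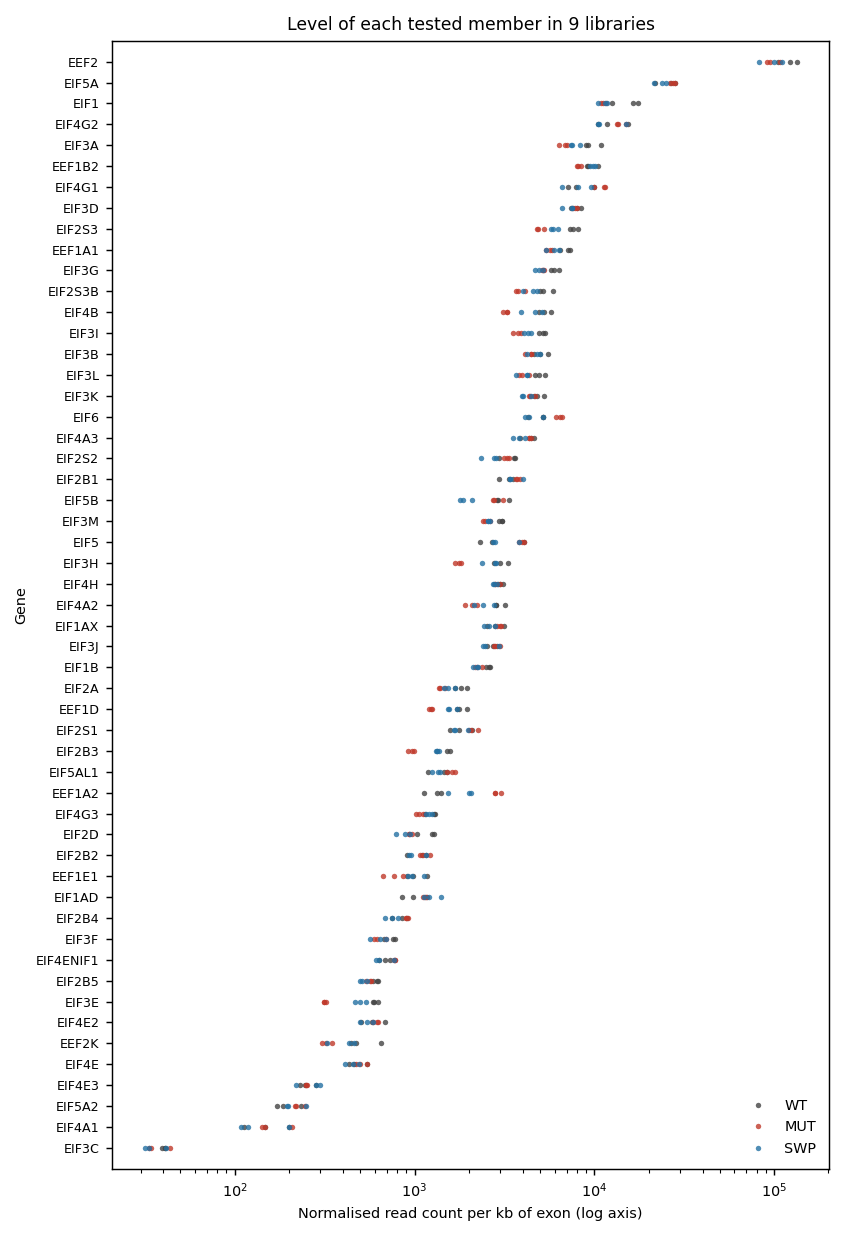
Normalised read counts per kb of merged exon (log axis) of the 53 tested members, each point a library, with genes ordered by their mean in WT. EEF2 stands alone at the top with 119876 counts per kb in WT, EIF3C lies lowest with 40.4, and for most genes the 9 libraries fall close together compared with the distance between genes.

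In MUT against WT, 9 of 53 members were called lower and 1 was called higher. The corresponding shares were 17% lower against a background of 10.1% of all tested genes, and 1.89% higher against 11.3%. Members are mostly abundant, with 51 of the 53 at a mean of at least 1000 counts, and among all genes at that level 9.32% were called lower and 4.87% higher. On the adjusted p alone, 22 members were lower and 2 higher, together 45.3% against 38.4% of all genes. Of the 10149 genes with a mean of at least 1000, 2667 were lower and 1681 higher on the adjusted p. The groups did not overlap for 24 members that were lower (background 26.4%) and 5 that were higher (background 25.9%). The members' median log2 fold change was -0.13, beside -0.003 for all tested genes, and 33 of the 53 members lay below 0. For the 10149 genes with a mean of at least 1000 the median was -0.03, and 5533 lay below 0. The groups were apart for 3338 of them that were lower and 2374 that were higher.

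In SWP against WT, 1 member was called lower and 1 higher, each 1.89%, against backgrounds of 2.98% and 2.15%, and 102 were lower and 140 higher among the 10149 genes with a mean of at least 1000. An adjusted p under 0.05 was reached by 13 members that were lower and 1 that was higher, which is 26.4% of members against 9.97% of all genes. The groups were apart for 19 lower members (background 15.5%) and 1 higher member (background 9.1%). The median of the members was -0.15 and that of all genes -0.06, and 46 of 53 members lay below 0, or 86.8% against 61.0% of all genes. WT is shared by both comparisons, so MUT and SWP are not independent of each other on this point.

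The fold changes of MUT against SWP do not use the WT libraries, but the spread in the test was pooled over all 9 libraries. The names of the MUT and SWP libraries do not carry the letters SLX. In this comparison 3 members were called higher and 2 lower, 5.66% and 3.77% against backgrounds of 12.3% and 8.31%. Of genes with a mean of at least 1000, 5.39% were called higher and 7.39% lower. With the adjusted p alone 7 were higher and 9 lower, 30.2% against 38.0%. Groups were apart for 15 higher members (background 29.2%) and 11 lower members (background 23.0%), and the medians were 0.06 for the members and 0.04 for all genes. For 3 libraries against 3, groups that do not overlap give p = 0.1 in a two-sided exact permutation test, and no smaller p is possible. In all, 12 members were called in at least 1 comparison, and EEF1A2 was the only member called in all 3.

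**Figure D2:**
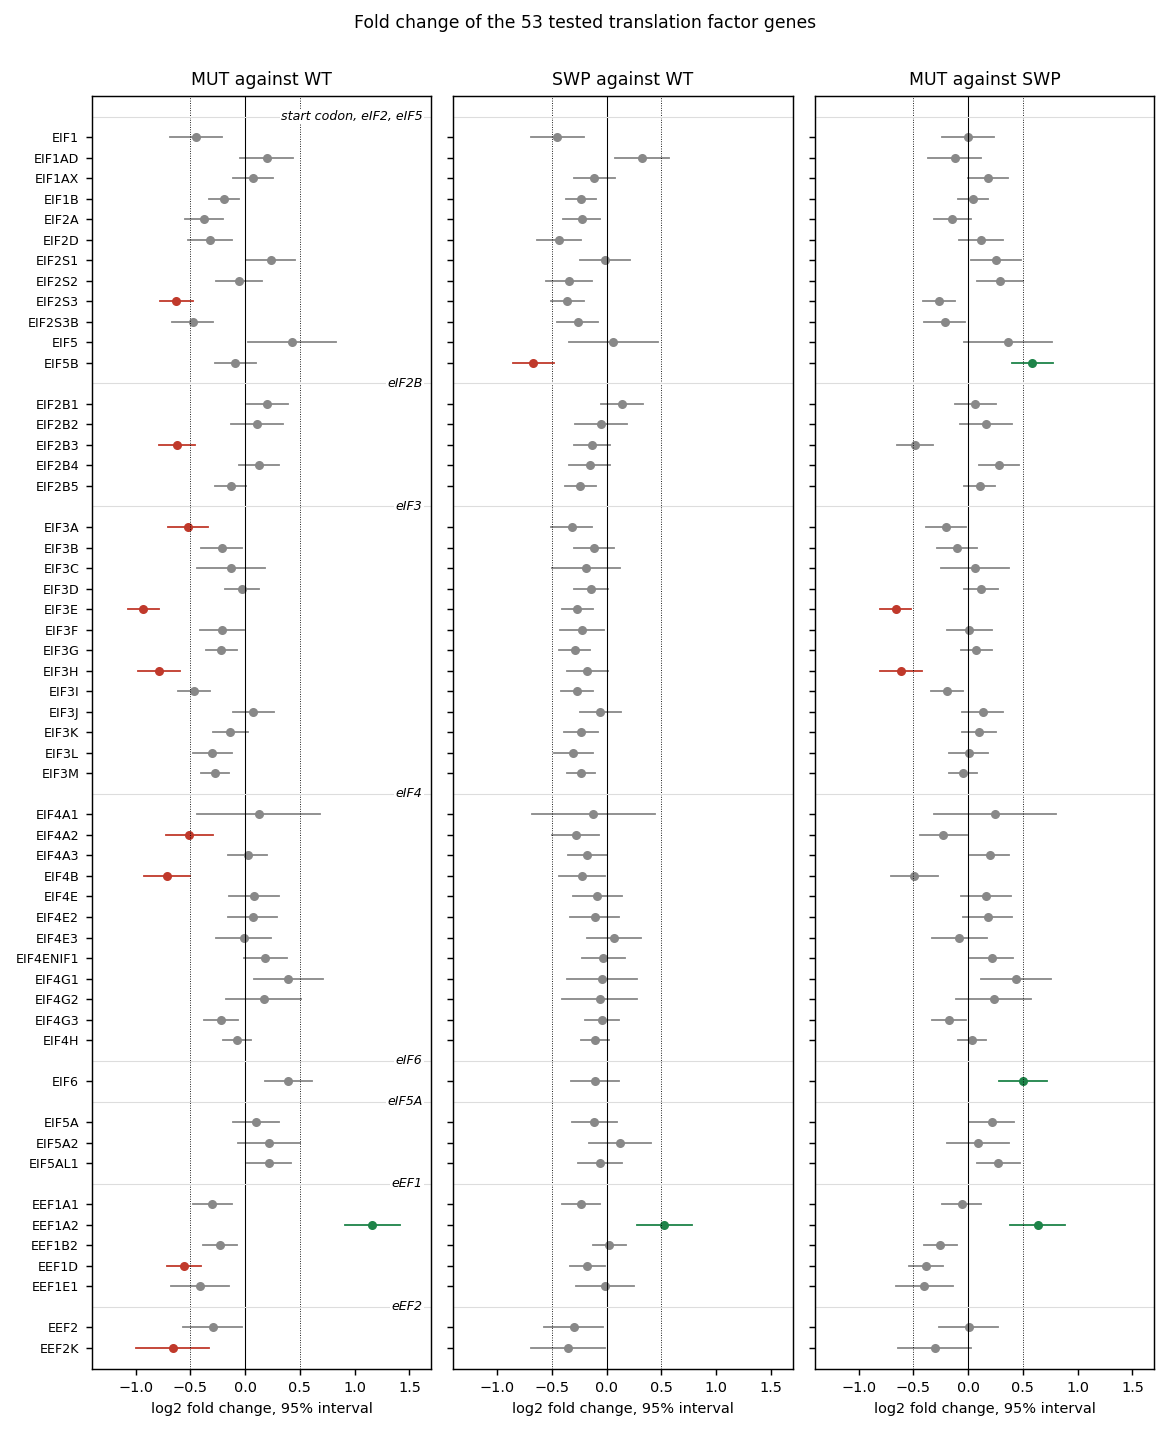
Log2 fold change of each tested member with its 95% interval from limma, in MUT against WT, SWP against WT and MUT against SWP, grouped by role. Red marks members called lower, green those called higher and grey the rest, with dotted lines at a log2 fold change of -0.5 and 0.5. EIF3E, at -0.93, is the lowest and EEF1A2, at 1.16, the highest in MUT against WT.

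The start sites of several members carry a pyrimidine run like that known from mRNAs under mTOR control. The RefSeq promoter table (GRCh38.p14) held 49 of the 58 members, and its first listed start was used for each gene, from 250 bases before to 50 bases after the start. EEF1A2, EEF1D, EIF2S2, EIF3A, EIF3CL, EIF3E, EIF3G, EIF3H and EIF3L had no entry. The run was searched as a C followed by at least 4 pyrimidines, on the strand of the gene, beginning within 5 bases of the start. It was found in 21 of 49 members (42.9%), and in 21.1% of the 27305 genes in the table. The 21 include EEF2K, EIF1, EIF3C and EIF5A2, where the run lies wholly before the start and so outside the mRNA. EEF2K is 1 of the 4 members with the run that were called lower in MUT. The following stretches are shown because they hold the run of the highest member, of EEF1A1 and of 3 of the 4 members with the run that were called lower in MUT. Capitals mark the run.
EEF2, chr19:3985439-3985468, minus strand: gcgttCTCTTCCgccgtcgtcgccgccatc
EEF1A1, chr6:73521008-73521037, minus strand: acgttCTTTTTCgcaacgggtttgccgcca
EIF2S3, chrX:24054946-24054975, plus strand: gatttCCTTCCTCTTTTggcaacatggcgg
EIF4B, chr12:53006451-53006480, plus strand: cgggtCTTTTgcgttctctttccctctccc
EIF4A2, chr3:186783572-186783601, plus strand: gctgtCTTTTCagtcgggcgctgagtggtt

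Members with and without the run differed in their values. In MUT against WT the median log2 fold change was -0.30 for the 19 tested members with the run, of which 4 were called lower, and 0.08 for the 26 tested members without it, of which 1 was. EIF3A, EIF3E, EIF3H and EEF1D, called lower, and EEF1A2, called higher, had no entry and are in neither group, here and for the motif below. Over all tested genes in the table the medians were -0.02 for 2744 genes with the run and 0.01 for 9502 without, and 11% and 9.35% of them were called lower. In SWP against WT the members' medians were -0.23 with the run and -0.10 without, beside -0.07 and -0.05 over all genes. In MUT against SWP they were 0.005 and 0.17, beside 0.04 and 0.05 over all genes. These medians are a description and were not tested.

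The same windows were searched for CACGTG, the E-box that MYC and its partner MAX bind, which reads alike on both strands. It was present in 11 of 49 members (22.4%) and in 7.43% of all genes in the table. The median log2 fold change in MUT against WT was -0.14 for those 11 members and -0.06 for the 34 tested members without it, beside -0.02 and 0.01 over all genes. Called lower were 3 of the 11, and 10.0% of all genes with the motif. In SWP against WT the 11 members had a median of -0.18, with 10 of them below 0. The 34 without the motif had -0.11, with 29 below 0. All genes had medians of -0.05 with the motif and -0.055 without, and 60.0% and 61.4% lay below 0. In MUT against SWP the members' medians were 0.04 with the motif, with none called, and 0.09 without, with 2 called higher. All genes had 0.02 and 0.05, and of the 1219 with the motif 7.79% were called lower and 110 were called higher. The stretches below show the motif, in capitals, at the 3 members with it that were called lower in MUT and at EIF4G1, which holds the motif at 2 places, of which 1 is shown, and was not lower.
EIF4B, chr12:53006422-53006451, plus strand: gcccgctataatCACGTGattgcctcatcc
EEF2K, chr16:22206207-22206236, plus strand: cctgggggcggcCACGTGagcgccacgccg
EIF2B3, chr1:44986757-44986786, minus strand: gacagagggacaCACGTGtcgaatgctcct
EIF4G1, chr3:184314450-184314479, plus strand: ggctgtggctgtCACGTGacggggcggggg
The motif begins 22, 59, 179 and 144 bases before the start in that order. In EIF4B it lies just upstream of the pyrimidine run shown above.

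Among the 12 tested factors of start codon recognition, eIF2 and its partners, 1 was called lower in MUT and a different 1 in SWP. Over all tested genes 10.1% and 2.98% were called lower in these comparisons with WT. EIF2S3 (ENSG00000130741, chrX:24054946-24078810, plus strand) encodes the gamma subunit of eIF2, which holds GTP and the initiator tRNA. Its normalised counts were 29692, 33139.6 and 31038 in WT, 21278, 19881 and 19575 in MUT and 23461, 25741 and 23921 in SWP. All libraries of the edited lines lay below all WT libraries, and MUT lay below SWP. It gave a log2 fold change of -0.63 (SE 0.07, adjusted p = 4.4e-05) in MUT and -0.36 (SE 0.07, adjusted p = 0.00636) in SWP, the latter under the fold threshold. Its coding retrocopy EIF2S3B, on chromosome 12, gave -0.48 (adjusted p = 0.00127) and -0.27 (adjusted p = 0.0801), and the sequences of both are close enough that reads may be shared. EIF2S3B was called lower in MUT without WT replicate 1 (-0.53), WT replicate 3 (-0.50) or MUT replicate 1 (-0.53). The other eIF2 subunits did not pass the fold threshold, with log2 fold changes in MUT of 0.23 for EIF2S1, the subunit phosphorylated by stress kinases, and -0.05 for EIF2S2.

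EIF5B (ENSG00000158417, chr2:99337371-99401326, plus strand), the subunit-joining GTPase, showed the reverse order of the edited lines. It had 26317, 22570.5 and 23036 normalised counts in WT, 24487, 21388 and 21755 in MUT and 16336, 14080.5 and 14717 in SWP. The SWP libraries lay below all others, and WT and MUT overlapped. The log2 fold change was -0.67 (SE 0.09, adjusted p = 0.000535) in SWP against WT and 0.58 (SE 0.09, adjusted p = 0.000318) in MUT against SWP, and for MUT against WT it was -0.09 with a 95% interval of -0.28 to 0.10. Genes within 10 Mb of EIF5B had a median of -0.08 in SWP against WT.

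EIF1 had 45392, 63309 and 59352 normalised counts in WT, 39422, 40343 and 42110.2 in MUT and 37915, 42427 and 41622 in SWP. Both edited lines lay below WT and overlapped each other. The log2 fold change was -0.45 in MUT (adjusted p = 0.00732) and -0.45 in SWP (adjusted p = 0.0236), just under the fold threshold, and without WT replicate 1 EIF1 was called lower in both (-0.59 and -0.59). EIF2A and EIF2D, which deliver tRNA to the ribosome by routes other than eIF2, were lower with an adjusted p under 0.05 in MUT (-0.37 and -0.32, adjusted p = 0.00323 and 0.0162), and EIF2D also in SWP (-0.44, adjusted p = 0.0112, and called at -0.53 without WT replicate 1). EIF5, the factor that makes eIF2 hydrolyse GTP, had 33978, 19133 and 22500.4 normalised counts in WT, 33987, 31793 and 32864 in MUT and 31753, 23162 and 22605 in SWP. The library numbered 1 was the highest in all groups. EIF5 was not called (0.43 in MUT against WT, adjusted p = 0.0895), but was called higher without WT replicate 1 (0.66) or with equal totals (0.50), and in MUT against SWP without SWP replicate 1 (0.52). EIF1B, the paralog of EIF1, had 4928, 4956 and 4699.7 in WT, 4468, 4229 and 4091 in MUT and 4231, 4187 and 3975 in SWP, with both edited lines below WT on the adjusted p alone (-0.19 and -0.23, adjusted p = 0.0337 and 0.0375). The remaining EIF1AX, which pairs with EIF1 on the small subunit, and EIF1AD gave 0.07 and 0.20 in MUT against WT, both with an adjusted p above 0.05.

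Of the 5 subunits of eIF2B, the exchange factor that eIF2 phosphorylation inhibits, only the gamma subunit EIF2B3 was called. EIF2B3 (ENSG00000070785, chr1:44850522-44986722, minus strand) had 5402, 4539 and 5172 normalised counts in WT, 3399, 3136 and 3282 in MUT and 4686, 4566 and 4472 in SWP. MUT lay below both other groups, which overlapped. Its log2 fold change was -0.62 (SE 0.07, adjusted p = 9.46e-05) in MUT against WT and -0.48 (adjusted p = 0.00047) in MUT against SWP, which passed the fold threshold without MUT replicate 1 (-0.51). EIF2B1, EIF2B2 and EIF2B4 gave 0.20, 0.11 and 0.13 in MUT against WT and EIF2B5 gave -0.13, none with an adjusted p under 0.05. In SWP against WT EIF2B5, the catalytic subunit, was lower by adjusted p alone (-0.24, adjusted p = 0.0385).

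eIF3, the large scaffold on the small subunit, held the members with the lowest values in MUT. Of its 13 tested subunits, 3 were called lower in MUT against WT. With these 3 included, 7 were lower at an adjusted p under 0.05, and 12 lay below 0. Over all tested genes 10.1% were called lower, 4141 of 20884 were lower at that adjusted p, and 50.3% lay below 0. EIF3E (ENSG00000104408, chr8:108162787-108443496, minus strand) had 22517, 23545 and 22325 normalised counts in WT, 11930.2, 11783 and 12139.7 in MUT and 17693, 20376 and 18787 in SWP. The 3 groups were fully separated, with SWP between WT and MUT. Its mean in MUT was 52.4% of WT, with a log2 fold change of -0.93 (SE 0.06, adjusted p = 2.56e-06), and against SWP it was -0.66 (SE 0.06, adjusted p = 1.8e-05).

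EIF3H (ENSG00000147677, chr8:116642130-116766925, minus strand) lies on the same chromosome and had 17881, 21349 and 19093 normalised counts in WT, 10798, 11315 and 11617 in MUT and 15316, 18128 and 18200.0 in SWP. MUT was again below all other libraries, and WT and SWP overlapped. Its values were -0.79 (SE 0.09, adjusted p = 4.99e-05) against WT and -0.61 (SE 0.09, adjusted p = 0.000258) against SWP. EIF3A (ENSG00000107581, chr10:119033670-119080817, minus strand), the largest subunit, had 64018, 76927 and 65550.0 normalised counts in WT, 48591, 44922 and 49918 in MUT and 52634, 53352 and 59116 in SWP. Here both edited lines lay below WT. The value in MUT was -0.52 (SE 0.08, adjusted p = 0.000668), close to the fold threshold, and it was -0.44 without WT replicate 2 and -0.48 without MUT replicate 2, which ended the call.

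The remaining eIF3 subunits moved less. EIF3I, EIF3L, EIF3M and EIF3G were lower in MUT on the adjusted p alone, at -0.46, -0.30, -0.28 and -0.22 (adjusted p = 0.000285, 0.0128, 0.00318 and 0.0202). EIF3J, a loosely attached subunit, was the member of eIF3 above 0 in MUT (0.07, adjusted p = 0.513), and EIF3D, which can bind the cap itself, gave -0.02 (adjusted p = 0.807). EIF3B, EIF3F and EIF3K gave -0.22, -0.21 and -0.14, none with an adjusted p under 0.05, in that comparison. In SWP against WT none of the 13 was called, 13 of 13 lay below 0, and 6 had an adjusted p under 0.05. Over all tested genes 2.98% were called lower, 61.0% lay below 0, and 1145 of 20884 were lower on the adjusted p. The median of the 13 subunits was -0.23, between -0.32 for EIF3A and -0.06 for EIF3J. In MUT against SWP the median was 0.003, and EIF3E and EIF3H were the subunits called, both lower.

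Of the 12 tested eIF4 genes, 2 were called lower in MUT against WT, 7 lay above 0, and none was called in SWP. Over all tested genes 10.1% were called lower in MUT against WT and 10375 of 20884 lay above 0. In SWP against WT 2.98% were called lower and 2.15% higher. EIF4B (ENSG00000063046, chr12:53006282-53042215, plus strand), which stimulates the helicase eIF4A, had 29550.2, 34717 and 31681 normalised counts in WT, 18798, 19759 and 19810.1 in MUT and 23547, 30788 and 28188 in SWP. MUT lay below the other groups, and WT and SWP overlapped. Its log2 fold change was -0.71 (SE 0.10, adjusted p = 0.000197) against WT and -0.49 (adjusted p = 0.00214) against SWP, where it was called without MUT replicate 2 (-0.50), MUT replicate 3 (-0.50) or SWP replicate 1 (-0.60). EIF4A2 (ENSG00000156976, chr3:186783205-186789897, plus strand), a paralog of the helicase, had 17477, 19527 and 17352 counts in WT, 13639, 12800.0 and 11719.9 in MUT and 13057, 17008 and 14776 in SWP. Both edited lines lay below WT and overlapped each other. The value in MUT was -0.51 (SE 0.10, adjusted p = 0.00191), and the call was lost without WT replicate 2 (-0.46) or MUT replicate 3 (-0.45).

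EIF4A1 itself was counted at only 1044, 771 and 587 in WT, 1081, 768 and 735 in MUT and 1049, 566 and 618 in SWP. The groups overlapped throughout, and the library numbered 1 was again the highest of each. The cap-binding protein EIF4E had 2720.5, 2152 and 2281 counts in WT, 2701, 2488 and 2349.6 in MUT and 2443, 2263 and 2029.7 in SWP, with all groups overlapping. Its paralog EIF4E2 had 7828, 5801 and 6621 in WT, 7200.1, 6764 and 7101 in MUT and 6738, 5692 and 6240.0 in SWP. EIF4E3 had 2498, 3065 and 2668 in WT, 2686, 2743 and 2689 in MUT and 2376, 3221 and 3057 in SWP. For EIF4E2 the MUT libraries lay just above SWP and WT overlapped both, while all groups overlapped for EIF4E3. No difference of these 3 genes had an adjusted p under 0.05, and for EIF4E in MUT against WT the 95% interval was -0.15 to 0.31. The scaffold EIF4G1 had 86984, 62428 and 69041 counts in WT, 98372, 86896 and 99581 in MUT and 84252, 57444 and 71039 in SWP. Its MUT libraries overlapped WT by a narrow margin. Its values were 0.39 (adjusted p = 0.0507) against WT and 0.44 (adjusted p = 0.034) against SWP. It was called higher against WT without WT replicate 1 (0.53) and against SWP without SWP replicate 1 (0.57). EIF4G3, a paralog of EIF4G1, had 15472, 15226 and 13551 in WT, 13312, 12127 and 12588 in MUT and 14797, 13728 and 14308 in SWP, and was lower in MUT on the adjusted p alone (-0.22, adjusted p = 0.03). EIF4A3, a helicase of the exon junction complex, EIF4G2, EIF4H and EIF4ENIF1, the carrier of eIF4E into the nucleus, were not called in any comparison.

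EIF6 (ENSG00000242372, chr20:35278907-35284985, minus strand), which keeps free large subunits from joining too early, had 8499.7, 6987 and 8445 normalised counts in WT, 10566, 9986 and 10823 in MUT and 8429, 6689 and 7098 in SWP. MUT lay above both other groups, which overlapped. It gave 0.40 (SE 0.10, adjusted p = 0.00898) against WT and 0.50 (SE 0.10, adjusted p = 0.00223) against SWP. The second value lies at the fold threshold, and leaving out MUT replicate 3, SWP replicate 2 or SWP replicate 3 brought it to 0.48, 0.43 and 0.48, which ended the call. Without MUT replicate 1 it stayed at 0.50 by rounding but fell just under the threshold. None of the 3 eIF5A genes was called. EIF5A had 71179, 58643 and 75349.9 counts in WT, 73296, 70646 and 75049.8 in MUT and 67497, 57880.5 and 63834 in SWP, with a 95% interval of -0.11 to 0.31 in MUT against WT, and its paralog EIF5A2 had 1299, 1028 and 955 in WT, 1372, 1219 and 1198 in MUT and 1382, 1089.9 and 1097 in SWP. For EIF5A the MUT libraries lay above SWP and WT overlapped both, and for EIF5A2 all groups overlapped. EIF5AL1, an intronless copy of EIF5A, gave 0.22 in MUT against WT (adjusted p = 0.0803) and 0.28 in MUT against SWP (adjusted p = 0.0323).

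The eEF1 group, which delivers aminoacyl-tRNA to the ribosome, held both the member with the largest rise and several that were lower. EEF1A2 (ENSG00000101210, chr20:63488013-63499239, minus strand) is the paralog of EEF1A1 found mainly in neurons and muscle. It had 6453, 6779 and 5443 normalised counts in WT, 14649, 13443 and 13516 in MUT and 7412, 9697 and 9881 in SWP. The 3 groups were fully separated, in the order WT, SWP, MUT. The mean in MUT was 223% of WT, a log2 fold change of 1.16 (SE 0.11, adjusted p = 2.46e-05), and against SWP it was 0.64 (SE 0.11, adjusted p = 0.00127). In SWP it was 145% of WT (0.53, SE 0.11, adjusted p = 0.014), and that call was lost without WT replicate 3 (0.43, adjusted p = 0.0626), SWP replicate 2 (0.47, adjusted p = 0.0566) or SWP replicate 3 (0.45, adjusted p = 0.06).

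EEF1A1, the general form, had 64564, 73561 and 71678 normalised counts in WT, 54405, 57255 and 58803 in MUT and 54222, 64053 and 59787 in SWP. Both edited lines lay below WT, with -0.30 (adjusted p = 0.0122) in MUT and -0.24 (adjusted p = 0.0874) in SWP. EEF1D (ENSG00000104529, chr8:143579697-143599541, minus strand), a subunit of the exchange factor that reloads eEF1A, had 16149, 16498 and 18407 counts in WT, 11554, 11285 and 11749 in MUT and 14587, 14389 and 16205 in SWP. MUT lay below the other groups, which overlapped. Its log2 fold change was -0.56 (SE 0.07, adjusted p = 0.000136) against WT and -0.38 (adjusted p = 0.00154) against SWP. EEF1B2, the companion exchange subunit, and EEF1E1, a scaffold of the tRNA synthetase complex, were lower in MUT on the adjusted p alone (-0.23 and -0.41, adjusted p = 0.0217 and 0.0187), and neither had an adjusted p under 0.05 in SWP.

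EEF2K (ENSG00000103319, chr16:22206278-22288738, plus strand), the kinase that inactivates eEF2, had 3569, 5199 and 3776 normalised counts in WT, 2442, 2576 and 2808 in MUT and 2609.8, 3452 and 3714 in SWP. MUT lay below WT, whereas SWP overlapped both. It gave -0.66 (SE 0.15, adjusted p = 0.00562) in MUT against WT and -0.36 (adjusted p = 0.184) in SWP. WT replicate 2 was the highest library, and without it the value in MUT was -0.49 (adjusted p = 0.018), just under the fold threshold. The members together took 2.02% ± 0.0698 of all normalised counts in WT, 1.88% ± 0.04 in MUT and 1.8% ± 0.0625 in SWP (SD, n = 3), of which EEF2 alone took 0.624%, 0.533% and 0.525%.

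**Figure D3:**
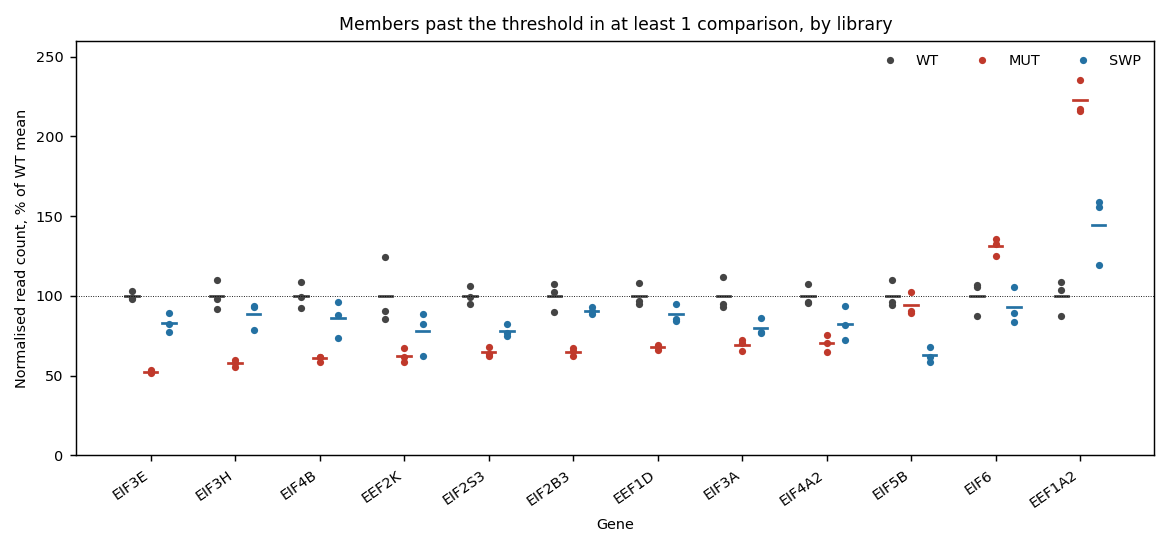
Normalised read counts of the 12 members called in at least 1 comparison, as a percent of the gene's WT mean, with each point a library and each short line a group mean. MUT (red) lies below WT (dark grey) for the 9 members on the left, SWP (blue) is the lowest group for EIF5B, and EEF1A2 reaches 223% of WT in MUT and 145% in SWP.

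Ratios within a library, each gene taken per kb of exon, compare paralogs without the size factor. Such ratios depend on the merged exon length, which is 10063 bases for EEF1A1 and 4826 for EEF1A2. Reads on copies are left out, and copies held 26.6% of the counts for EEF1A1 and 67.6% for EIF4E. The ratios are therefore compared between lines and are not levels of a paralog over another. EEF1A1 exceeded EEF1A2 by 4.8, 5.2 and 6.32 times in WT, 1.78, 2.04 and 2.09 times in MUT and 3.51, 3.17 and 2.9 times in SWP. No library of a group entered the range of another group. The ratio of EIF4G1 to EIF4G3 was 6.71 ± 1.05 in WT, 10.2 ± 0.519 in MUT and 6.72 ± 1.02 in SWP (SD, n = 3), with MUT apart from the others. For EIF1 over EIF1B the ratios were 6.02 ± 1.05, 4.98 ± 0.383 and 5.14 ± 0.413 in WT, MUT and SWP, for EIF5A over EIF5A2 131 ± 27.5, 120 ± 9.5 and 110.2 ± 9.66, and for EIF4E over EIF4E2 0.818 ± 0.0335, 0.827 ± 0.0547 and 0.836 ± 0.0835. EIF4E over EIF4E3 was 1.92 ± 0.424, 2.02 ± 0.149 and 1.74 ± 0.435. EIF4A1 over EIF4A2 was 0.0523 ± 0.016, 0.0794 ± 0.0123 and 0.0611 ± 0.0296. In these 5 pairs the ranges of the groups overlapped, except that EIF4A1 over EIF4A2 reached 0.0704 in WT and began at 0.0707 in MUT. An exact permutation test of any of these ratios cannot go below p = 0.1.

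The files count many reads on copies of the members. The aligner used does not join reads across introns, so a read that spans an exon junction can match an intronless retrocopy better than the gene. For 28 members 153 copies were listed, and 141 of them had reads. Listed copies are pseudogenes named after the member in GENCODE. The coding members EIF2S3B, EIF5AL1 and EIF3CL were added as copies of EIF2S3, EIF5A and EIF3C. For 16 members the copies held over 10% of the counts of gene and copies together, and for 5 (EEF1G, EIF4A1, EIF4E, EIF2S2 and EIF1AX) over 50%. Copies held 96.9% for EIF4A1, with 802 counts on the gene and 25078 on its pseudogenes. They held 26.6% for EEF1A1, 35.6% for EIF4B, 37.8% for EIF3E and 38.4% for EIF2S3, all of the last on EIF2S3B. Where such reads came from the gene, those members' levels are understated by an unknown amount. Which reads did was not tested, and the low place of EIF4A1 above cannot be taken as its expression.

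For 23 members both the gene and its largest copy were tested, and in MUT against WT the copy minus the gene ran from -0.36 to 0.22 on the log2 scale, with a median size of 0.06. For MUT against WT, EIF3EP1 had -0.94 beside -0.93 for EIF3E, EEF1DP1 had -0.57 beside -0.56 for EEF1D, EIF4BP7 had -0.56 beside -0.71 for EIF4B and EEF1A1P5 had -0.29 beside -0.30 for EEF1A1. Others differed more: EIF3JP2 had 0.30 (adjusted p = 0.0152) beside 0.07 for EIF3J, EIF3KP1 had 0.01 beside -0.14 for EIF3K and EIF2S2P4 had 0.08 beside -0.05 for EIF2S2. Adding the reads of all copies to their gene gave -0.94 for EIF3E, -0.56 for EEF1D, -0.67 for EIF4B and -0.57 for EIF2S3, and no call of a member in any comparison was gained or lost. With copies added, EIF4A1 gave 0.02 in MUT against WT (adjusted p = 0.835) and -0.35 in SWP against WT (adjusted p = 0.0036). This alternative was chosen after the data were seen.

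**Figure D4:**
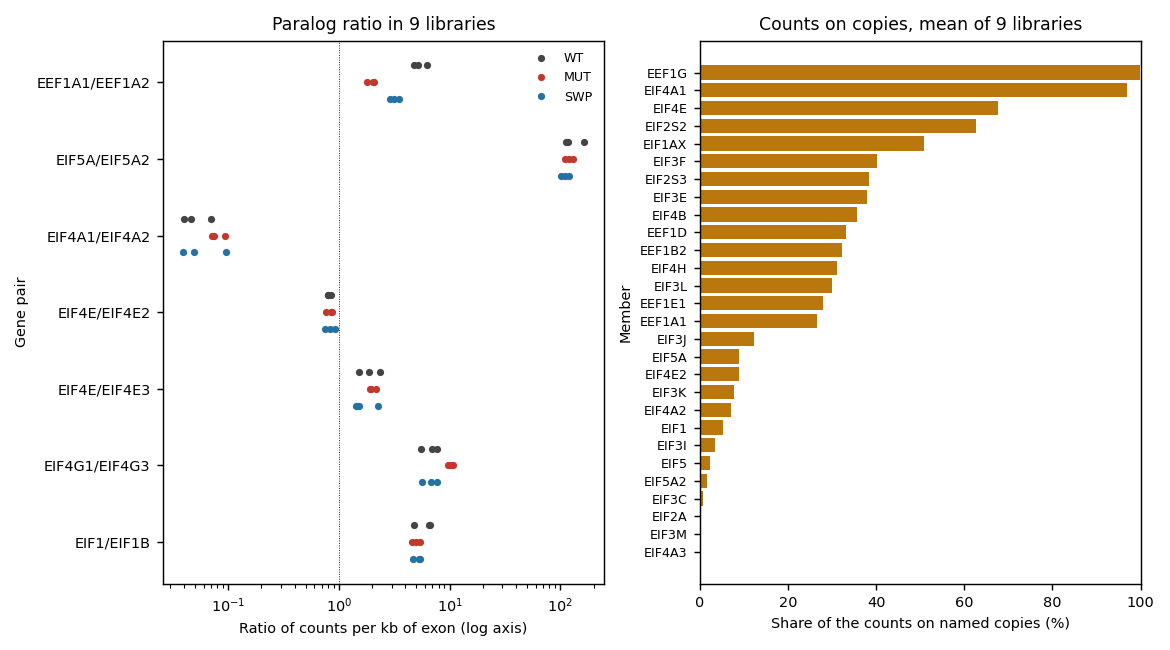
Left, ratio of counts per kb of exon (log axis) for 7 paralog pairs, each point a library of WT (dark grey), MUT (red) or SWP (blue). Right, share of the counts of gene and copies that fell on named copies, as a mean of 9 libraries. EEF1A1 over EEF1A2 separates all 3 groups, and copies held 96.9% of the EIF4A1 counts.

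Genes near some of the called members were shifted in the same direction. For each member the median log2 fold change was taken over the tested genes, other members left out, that start within 10 Mb on the same chromosome, which gave 62 to 529 genes. For MUT against WT these medians ran from -0.39 to 0.38. Around EIF3E, EIF3H and EEF1D on chromosome 8 they were -0.39, -0.27 and -0.39, around EIF2B3 on chromosome 1 -0.33, and around EEF1A2 on chromosome 20 0.38. EIF4B, EEF2K, EIF2S3 and EIF4A2 had neighbours near 0, at 0.06, 0.10, 0.01 and 0.06. EIF6, which was not called in MUT against WT, had 0.40 beside a neighbour median of 0.35.

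With the neighbour median subtracted, 7 of the 10 members called in MUT against WT kept a log2 difference beyond 0.5. These were EEF1A2 (0.78), EIF4B (-0.77), EEF2K (-0.76), EIF2S3 (-0.64), EIF4A2 (-0.57), EIF3E (-0.54) and EIF3H (-0.51), while EIF3A (-0.39), EIF2B3 (-0.29) and EEF1D (-0.17) did not. In SWP against WT both called members kept it, at 0.56 for EEF1A2 and -0.60 for EIF5B. In MUT against SWP only EIF5B kept it, at 0.53, whereas EEF1A2 came to 0.20, EIF6 to 0.09, EIF3E to -0.34 and EIF3H to -0.37, and EIF4B passed at -0.64. What shifts the neighbours was not tested.

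**Figure D5:**
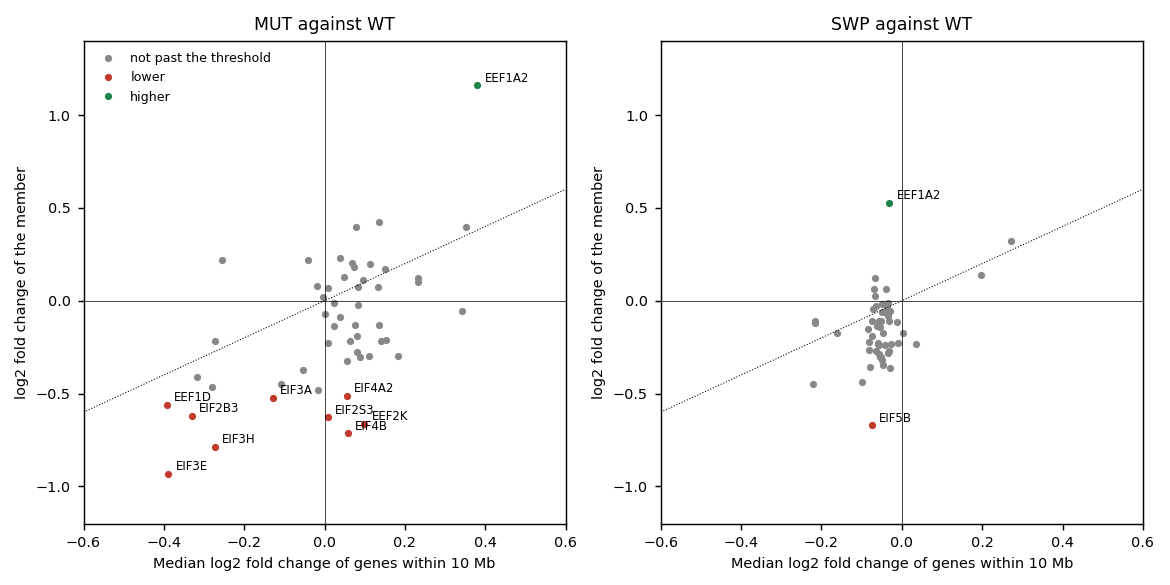
Log2 fold change of each tested member (vertical) against the median of the genes that start within 10 Mb of it (horizontal), in MUT against WT (left) and SWP against WT (right), with a dotted line where both are equal. Called members are named. In MUT, EIF3E, EIF3H, EEF1D and EIF2B3 lie over neighbour medians of -0.27 to -0.39, while EIF4B, EEF2K, EIF2S3 and EIF4A2 lie well below 0 over neighbours near 0.

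Genes that regulate or complete the work of these factors were listed by name: kinases and phosphatase subunits of eIF2, binders of eIF4E, eIF4A and the poly(A) tail, helicases and recycling factors, modifying enzymes, release factors, and mitochondrial factors. Of 59 tested, 8 were called lower and none higher in MUT against WT, none was called in SWP against WT, and 2 were called higher and 8 lower in MUT against SWP. The 8 lower genes are 13.6% of the list in both comparisons with MUT, beside 10.1% and 8.31% of all tested genes. Medians were -0.06, -0.06 and -0.01. Of the 12 binders of eIF4E, eIF4A and the poly(A) tail, 4 were called lower in MUT against WT. PABPC1, the main poly(A)-binding protein, lies on chromosome 8 and had 86241, 109419.8 and 92715 normalised counts in WT, 42935, 42899 and 46539 in MUT and 73729, 82826 and 85064 in SWP. MUT lay far below the other groups, and the log2 fold change was -1.12 (adjusted p = 8.09e-06) beside a neighbour median of -0.41. EIF4EBP1, the repressor of eIF4E released by mTOR, gave -0.84 (adjusted p = 0.0208) with overlapping groups, and PDCD4, an inhibitor of eIF4A, gave -0.68 (adjusted p = 0.00266) beside a neighbour median of -0.21. With the neighbours subtracted PABPC1 and EIF4EBP1 stayed beyond a log2 difference of 0.5 (-0.70 and -0.93) and PDCD4 did not (-0.47).

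Among the 15 tested modifying enzymes 2 were called lower in MUT against WT, where 10.1% of all tested genes were. EEF1AKMT1, a lysine methyltransferase of eEF1A, gave -1.0 (adjusted p = 0.000682) beside a neighbour median of -0.31. DPH5, an enzyme of the diphthamide pathway that modifies eEF2, gave -0.76 (adjusted p = 1.08e-05) beside -0.24. HBS1L, a ribosome rescue GTPase, was called among 7 release, selenocysteine and frameshift factors at -0.82 (adjusted p = 4.04e-06) beside a neighbour median of -0.62, and MTRF1L among 10 mitochondrial factors at -0.58 (adjusted p = 0.00103) beside -0.69, and neither stayed beyond 0.5 with the neighbours subtracted. None of the 9 kinases and phosphatase subunits of eIF2 or of the 6 helicases, re-initiation and recycling factors was called in MUT against WT. In limma 2 and 2 of them had an adjusted p under 0.05, as did 38.4% of all tested genes.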

How the data were processed

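RNA-seq of HEK293T lines was analysed here, with 9 of the 213 samples of the series. The authors prepared strand-specific poly(A) libraries, aligned reads to hg38 with bwa mem, dropped duplicate reads (Picard) and summed reads over GENCODE genes. The counting tool and its use of strand are not given in the sources used here. The deposited values are a signal, read counts divided by a DESeq2 size factor per library. Every positive value was a whole multiple of 1 step per library (100% within 1e-06), which gave back the reads. Counting error is small at the depth of these libraries and the level of most members, while 3 libraries per line limit the estimate of the spread. Chi-square tests of counts between libraries of a line gave 9.0 to 61.1 for each degree of freedom, so none repeated another.

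limma 3.58.1 in R 4.3.3 (lmFit, eBayes with a trend) was fitted to log2(normalised count + 1) of 9 libraries and 20884 genes with a mean of at least 10, with Benjamini-Hochberg adjustment over all of them, so fold changes are on that scale. Groups and replicate numbers came from the sample titles. Positions and symbols came from GENCODE release 44 on hg38, which matched 57754 of 58336 identifiers. Same-numbered libraries of MUT and SWP (correlations of deviations 0.333, 0.241 and 0.232) deviated together, so their numbers were taken as pairs, as a pattern in the data. Those of WT and SWP did so for numbers 1 and 2 (0.555 and 0.403) but not for number 3 (0.102). WT replicate 3 correlated better with SWP replicate 2 (0.166), and SWP replicate 3 with WT replicate 2 (0.263). The main fit used no pairs, and the fit with a replicate block is an alternative. Same-numbered libraries of WT with MUT or with SWP were not taken as pairs.

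Members and lists were chosen with earlier results of these data known. Library values are given for members called in any comparison, for 7 paralog pairs, for the 3 highest and 3 lowest per kb in WT, and, chosen after values were seen, for EIF5. Alternatives were pseudocounts of 0.1 and 10, other minimum counts, other scalings, no trend, only the 2 groups compared, the replicate block, fold thresholds of 0 and 1, the recovered reads in edgeR 4.0.16 or DESeq2 1.42.0, neighbours subtracted, each library left out, and copies added. The fits were tested on simulated data. Python 3.11.15 with pandas 2.3.3, numpy 2.4.6 and matplotlib 3.10.9 was used.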

Additional observations from a re-analysis of the deposited data

How the results depend on the processing

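No member called in a comparison changed direction in it under any alternative. In MUT against WT the count of members called lower (9) became 22 with no fold threshold and 0 beyond a log2 fold change of 1, and the count called higher (1) became 2 with equal totals and with no fold threshold. Leaving out each library in turn gave 1 to 3 called higher and 6 to 11 called lower, the most without WT replicate 1 and the fewest lower without WT replicate 2, where EEF2K, EIF3A and EIF4A2 dropped out. EIF4A2 was also lost with edgeR, with equal totals and with equal upper quartiles, EIF3A with both scalings and EEF1D with equal totals. The members' median (-0.13) was -0.0568 with equal totals, where that of all genes was 0.07, and -0.0934 with equal upper quartiles, where it was 0.03, and ran from -0.16 to -0.11 over the left-out libraries.

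In SWP against WT the count called lower (1) became 13 with no fold threshold and 0 beyond 1, and the count called higher (1) became 0 beyond 1. Left-out libraries gave 0 to 1 higher and 1 to 3 lower, the most without WT replicate 1, with EIF1 and EIF2D added. The median (-0.15) was -0.10 with equal totals, -0.11 with edgeR, -0.11 with DESeq2 and -0.0858 with the neighbours subtracted, and ran from -0.19 to -0.13 over left-out libraries.

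In MUT against SWP the counts (3 higher, 2 lower) became 7 and 9 with no fold threshold, 0 and 0 beyond 1, and 1 and 1 with the neighbours subtracted. edgeR and DESeq2 each called 4 lower, adding EIF2B3 and EIF4B and losing EIF6. Left-out libraries gave 2 to 5 higher, the most without SWP replicate 1, and 2 to 3 lower. The median (0.06) was 0.0244 with DESeq2 and -0.0285 with the neighbours subtracted, and ran from 0.03 to 0.08 over left-out libraries. The causes were not tested.

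With the replicate block the counts were 1 higher and 9 lower, 1 and 1, and 3 and 2 in the 3 comparisons, and the block changed no call of a member. For WT and MUT the same-numbered correlations were 0.328, 0.146 and 0.049, and WT replicate 3 correlated better with MUT replicate 2 (0.154). Copies on which reads can fall, 3 libraries per line and a possible sequencing pool, marked in the WT names alone, limit what these comparisons show. Adjusted p over the alternatives ran from 3.18e-19 to 0.000456 for EEF1A2 and from 1.4e-36 to 8.76e-05 for EIF3E in MUT against WT.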
